A study of Mus musculus with 6 samples.

Results

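Hepcidin and the genes that handle iron in the liver are described here in livers of Cgref1 KO and WT mice. The 10 genes were chosen by name, with earlier results of these data already known: Hamp, Id1, Smad7, Tfr2, Hfe, Tfrc, Trf, Slc40a1, Fth1 and Ftl1. They are 10 of 15953 genes in the expression table, and all 10 were among the 12033 genes with enough reads to be tested. Liver RNA was sequenced in 3 samples labelled Cgref1 KO and 3 labelled WT, all from mice of strain C57BL/6. Cgref1 encodes a secreted protein with EF-hand calcium-binding motifs. The labels name the sample as hepatocytes from liver, while the design text speaks of liver tissue. The labels state neither the design of the Cgref1 allele nor the age or sex of the mice. The labels call the 3 samples of each group biological replicates without saying whether each came from its own mouse, so p-values measure the spread between these samples.

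Hepcidin, the product of Hamp, is a peptide hormone that hepatocytes secrete. It binds ferroportin, the iron exporter encoded by Slc40a1 on macrophages, hepatocytes and enterocytes, and causes its degradation, so that less iron enters the plasma. Hepatocytes set Hamp transcription by reading iron: BMP ligands act through SMAD proteins, HFE and transferrin receptor 2 sense iron-loaded transferrin, and inflammatory cytokines act through STAT3. Id1 and Smad7 are transcribed by the same BMP and SMAD route. Iron regulatory proteins act separately on messenger RNAs that carry an iron-responsive element, a small hairpin: in a 5′ UTR it limits translation when iron is low, and in the 3′ UTR of Tfrc it stabilises the transcript.

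The mouse genome holds a second hepcidin gene, Hamp2, beside Hamp. The 250 bases before each start (RefSeq, GRCm38.p6, both minus strand, Hamp at chr7:30944030-30944279 and Hamp2 at chr7:30924182-30924431) are shown because both copies are followed below and differ at a motif for SMAD proteins. Capitals mark GGCGCC, the core of the BMP-responsive element, and TTCNNNGAA, the form of a STAT site. Both motifs read the same on either strand, and their matches do not overlap.
Hamp: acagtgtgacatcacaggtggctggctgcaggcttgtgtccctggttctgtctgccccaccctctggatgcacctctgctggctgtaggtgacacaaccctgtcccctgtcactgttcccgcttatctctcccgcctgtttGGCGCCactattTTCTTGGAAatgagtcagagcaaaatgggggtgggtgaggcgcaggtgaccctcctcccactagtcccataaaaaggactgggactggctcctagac
Hamp2: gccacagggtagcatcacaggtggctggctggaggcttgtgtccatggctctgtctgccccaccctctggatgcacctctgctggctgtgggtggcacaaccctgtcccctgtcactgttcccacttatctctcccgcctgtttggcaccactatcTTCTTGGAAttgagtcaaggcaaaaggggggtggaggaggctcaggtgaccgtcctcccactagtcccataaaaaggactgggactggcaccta
Aligned, the promoters were 89.7% identical. GGCGCC began 109 bases before the start of Hamp, and at the aligned place Hamp2 read GGCACC, the substitution G145A counted from 1 at the 5′ end of the Hamp window. TTCTTGGAA began 97 bases before the start of Hamp and 94 bases before that of Hamp2. Among 32851 RefSeq promoter windows of this length, 9.59% held GGCGCC and 7.02% held TTCNNNGAA. Of the other genes, Tfr2, Tfrc, Hfe, Fth1 and Ftl1 had windows, and GGCGCC was found in 1 of the 2 windows of Tfrc. No entry was found for Id1, Slc40a1, Trf and Smad7.

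Iron-responsive elements were searched for in the annotated UTRs (GENCODE M21, GRCm38) of Ftl1, Fth1, Slc40a1 and Tfrc, genes picked in advance. The other genes were not searched. The elements are shown because iron regulatory proteins act through them. Capitals mark the 6-base loop, flanked by paired stems of 5 bases.
Ftl1, 5′ UTR, chr7:45459785-45459801, minus strand: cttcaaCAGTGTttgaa
Fth1, 5′ UTR, chr19:9982738-9982754, plus strand: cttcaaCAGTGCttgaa
Slc40a1, 5′ UTR, chr1:45925471-45925487, minus strand: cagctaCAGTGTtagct
Tfrc, 3′ UTR, chr16:32631225-32631241, plus strand: cggaagCAGTGCcttcc
Tfrc, 3′ UTR, chr16:32631604-32631620, plus strand: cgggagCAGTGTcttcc
Tfrc, 3′ UTR, chr16:32631669-32631685, plus strand: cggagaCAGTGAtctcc
Tfrc, 3′ UTR, chr16:32631716-32631732, plus strand: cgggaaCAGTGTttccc
The matches are descriptions of the letters and carry no measurement of binding.

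Each library held 17627734 to 18366443 estimated counts. Cgref1 itself had 7, 12 and 10 counts in the KO-labelled libraries and 7, 7 and 19 counts in the WT libraries, sums of 29 in KO-labelled and 33 in WT libraries. It was below the count filter; fitted all the same in edgeR, its log2 difference was −0.11 (95% interval −1.23 to 1.01, adjusted p = 0.994). Cgref1 transcript was counted in every library of both groups, no loss was seen, and the genotype rests on the labels. Hepatocyte markers summed to 85960 to 109900 counts scaled by library size (CPM) in KO-labelled libraries and 83090 to 113300 CPM in WT libraries. Markers of other liver cells were present too, among them 12 Kupffer cell markers summing to 397.4, 428.2 and 407.9 CPM in KO-labelled libraries and 317.1, 342.1 and 349.3 CPM in WT libraries. Stellate cell markers summed to 252.3 to 299.1 CPM in KO-labelled libraries and 296.2 to 388.9 CPM in WT libraries. Of 24 markers of intestine and pancreas, 19 were in the table. Of these, 11 had no count in any KO-labelled library (and 1 had none in any WT library). WT replicates 1 and 3 held transcripts of this kind, such as 44 and 32 counts of Reg3b, an example picked after its values were seen. Results for both hepcidin genes and for some targets of SMAD signalling are also given without these 2 libraries. In bulk liver, fewer cells of a type and less RNA per cell cannot be told apart.

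Per transcript length, the abundances spanned several orders. In FPKM, which divides by transcript length and library size (mean of 6 libraries), Ftl1 averaged 4739 FPKM and Trf 4334 FPKM, with overlapping ranges. Hamp at 2205 FPKM and Fth1 at 1845 FPKM came next, and their order differed by group. In KO-labelled livers Hamp averaged 1618 ± 326 FPKM and Fth1 1780 ± 74.2 FPKM, with overlapping ranges. In WT livers Hamp averaged 2792 ± 453 FPKM and Fth1 1910 ± 45.6 FPKM, without overlap (SD, n = 3 each). Tfr2 averaged 98.04 FPKM, Slc40a1 35.01 FPKM and Hfe 23.08 FPKM, each separate from its neighbours. Id1 at 6.513 FPKM, Tfrc at 5.145 FPKM and Smad7 at 1.6 FPKM were the least abundant, each overlapping the next in order.

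Hamp transcript was lower in KO-labelled livers, without passing the test. Hamp (chr7:30942368-30944017, minus strand) had 474.7, 353.7 and 331.7 CPM in KO-labelled livers, against 517.3, 713.6 and 644.3 CPM in WT livers. Every KO-labelled value lay below every WT value, with the closest pair being KO-labelled replicate 1 and WT replicate 1. The means were 386.7 ± 77.0 CPM in KO-labelled livers and 625.1 ± 99.6 CPM in WT livers (SD, n = 3 each), 0.619-fold. On the log2 scale the difference was −0.69 (SE 0.16, 95% interval −1.06 to −0.32), with an edgeR quasi-likelihood p of 0.00211 and a Benjamini-Hochberg adjusted p of 0.739 over all genes tested. DESeq2, run on the same counts, gave −0.70 with an adjusted p of 0.0199. The authors' deposited table, also made with DESeq2, lists a log2 difference of −0.70 with a q-value of 0.024. Both DESeq2 results come from the same libraries and are not independent. Without WT replicates 1 and 3 the difference was −0.90, with an edgeR adjusted p of 1.0.

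None of the 10 genes passed an edgeR adjusted p of 0.05, beside 0.00831% of all 12033 genes tested. At an unadjusted p of 0.05, 1 of the 10 passed, Hamp, beside 5.15% of all genes (2.2% lower and 2.95% higher in KO-labelled livers). DESeq2 called Hamp alone of the 10, beside 0.233% of all genes, and limma-voom called none. The groups did not overlap for 1 of 10, beside 10.8% of all genes (4.63% lower and 6.19% higher in KO-labelled livers), a share close to the background. The median log2 difference was −0.06 over the 10 genes, with 3 above and 7 below 0, and −0.0022 over all genes tested, with 5954 above and 6079 below 0.

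**Figure D1:**
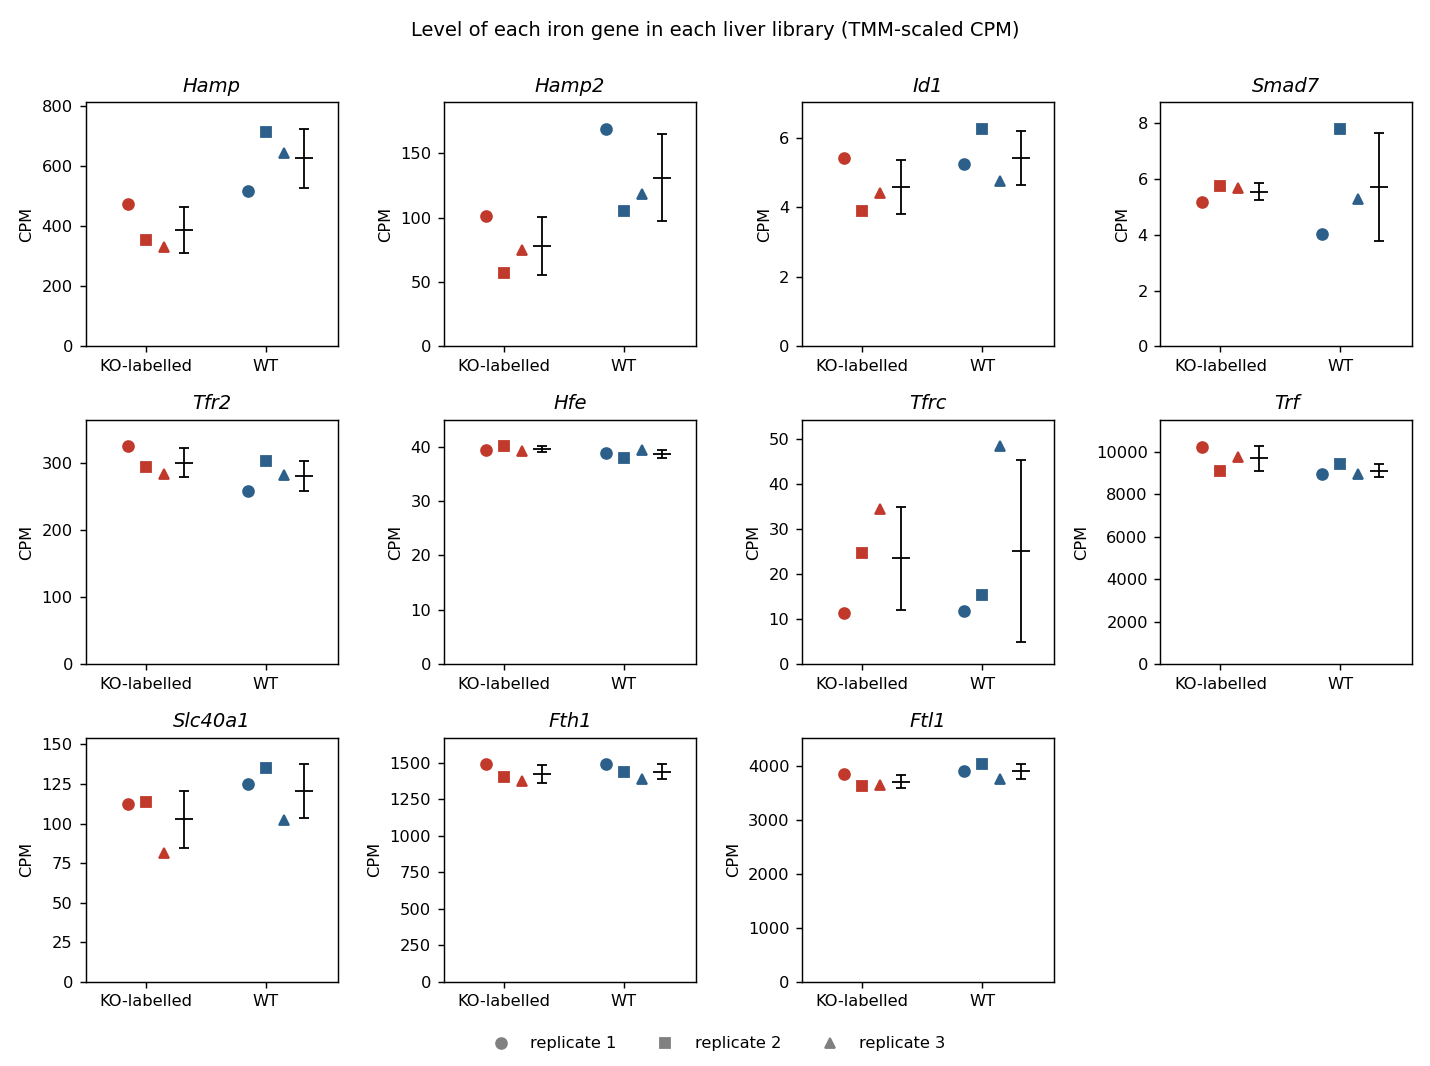
CPM of each iron gene and of Hamp2 in the 3 KO-labelled and 3 WT livers, 1 marker per library, with the mean and SD beside each group. Hamp reached at most 474.7 CPM in KO-labelled livers and at least 517.3 CPM in WT livers, while the groups of the other 9 genes overlapped.

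The second hepcidin gene, Hamp2, ran the same way. Hamp2 had 101.4, 56.66 and 75.13 CPM in KO-labelled livers, against 169.3, 105.2 and 118.3 CPM in WT livers. Again no KO-labelled value reached a WT value, the nearest being 101.4 CPM in a KO-labelled liver and 105.2 CPM in a WT liver. The log2 difference was −0.75 (SE 0.26, 95% interval −1.37 to −0.13), and the edgeR adjusted p of 0.918 did not pass. The Hamp and Hamp2 transcripts (410 and 420 bases) were 92.4% identical. Of the windows in Hamp, 60 of 361 of 50 bases and 0 of 311 of 100 bases were also found in Hamp2. Depending on read length, which is not given here, reads may have been split between the copies, so both values are uncertain. The Hamp2 entry in the table also merges a second transcript and is placed on the plus strand. Of the counts of both genes together, Hamp took 82.4, 86.2 and 81.5% in KO-labelled libraries and 75.3, 87.2 and 84.5% in WT libraries. With the counts of both copies summed, the log2 difference was −0.70, with an edgeR adjusted p of 0.636. Without WT replicates 1 and 3, Hamp2 differed by −0.45 on the log2 scale, with an edgeR adjusted p of 1.0.

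Other targets of BMP and SMAD signalling showed no difference that passed the test. Id1 (chr2:152736234-152738260), a helix-loop-helix inhibitor of transcription factors, had 5.422, 3.894 and 4.407 CPM in KO-labelled livers, against 5.243, 6.270 and 4.746 CPM in WT livers. The groups overlapped, and each library held only 67 to 118 counts of Id1. Its log2 difference was −0.25 (SE 0.20, 95% interval −0.69 to 0.19, edgeR adjusted p = 0.988). Leaving out 1 library at a time gave −0.38 (without KO-labelled replicate 1) to −0.12 (without WT replicate 2).

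Smad7, on chromosome 18, encodes an inhibitory SMAD that feeds back on the pathway. It had 5.189, 5.753 and 5.673 CPM in KO-labelled livers, against 4.029, 7.811 and 5.292 CPM in WT livers. The WT values lay on both sides of all KO-labelled values. The log2 difference was −0.05 (SE 0.24, 95% interval −0.57 to 0.48, edgeR adjusted p = 0.994). Of 6 further targets tested, 3 had a positive and 3 a negative difference, with a median of −0.05 on the log2 scale, and none passed at an unadjusted p of 0.05. Id2, of the Id1 family, averaged 79.62 ± 8.08 CPM in KO-labelled livers and 107.7 ± 34.2 CPM in WT livers (SD, n = 3 each), a log2 difference of −0.44 (SE 0.23, edgeR adjusted p = 0.974). The Id2 difference was −0.21 without WT replicate 1 and −0.66 without WT replicate 3 (edgeR adjusted p = 0.659).

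No gene of the route above them passed the test. Of 18 pathway genes tested of 19 listed, 9 had a positive and 9 a negative difference, with a median log2 difference of 0.01, and none passed at an unadjusted p of 0.05. Hjv, the BMP co-receptor hemojuvelin, averaged 54.77 ± 1.83 CPM in KO-labelled livers and 50.95 ± 6.79 CPM in WT livers (SD, n = 3 each), a log2 difference of 0.10. Bmpr1a and Bmpr2, receptors for BMPs, had log2 differences of −0.13 and −0.11. Tmprss6, the protease that cleaves hemojuvelin, averaged 409.1 ± 38.7 CPM in KO-labelled livers and 394.9 ± 35.4 CPM in WT livers. The ligand Bmp6 averaged 4.898 ± 1.11 CPM in KO-labelled livers and 5.207 ± 0.767 CPM in WT livers, a gene added outside the rule for named genes.

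The iron sensors on the hepatocyte surface lay close together between the groups. Tfr2 (chr5:137569821-137588081), transferrin receptor 2, had 324.8, 293.1 and 282.9 CPM in KO-labelled livers, against 257.7, 302.2 and 282.3 CPM in WT livers. The groups overlapped, and the log2 difference was 0.10 (SE 0.10, 95% interval −0.13 to 0.33, edgeR adjusted p = 0.988).

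Hfe (chr13:23551286-23761249), the MHC class I-like protein altered in the common form of haemochromatosis, had 39.29, 40.10 and 39.16 CPM in KO-labelled livers, against 38.80, 37.94 and 39.39 CPM in WT livers. The highest of the 6 libraries was 1.06 times the lowest. The log2 difference was 0.03 (SE 0.09, 95% interval −0.16 to 0.22, edgeR adjusted p = 0.994). The lower bounds of Tfr2 and Hfe both lay above the −0.69 estimated for Hamp, whose own interval was −1.06 to −0.32. The same held for Smad7, Slc40a1, Trf, Fth1 and Ftl1, and only barely for Id1 (−0.685 against −0.693), but not for Tfrc. The intervals of Id1, Smad7, Slc40a1 and Tfrc overlapped that of Hamp. The Hfe entry in the table spans well beyond the gene in GENCODE M21, so its counts may include other transcripts.

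Tfrc varied more within each group than any other of the 10 genes. Tfrc (chr16:32608896-32632794), transferrin receptor 1, which brings transferrin-bound iron into cells, had 11.43, 24.58 and 34.32 CPM in KO-labelled livers, against 11.76, 15.25 and 48.39 CPM in WT livers. The highest library was 3.0 times the lowest among KO-labelled livers and 4.12 times the lowest among WT livers. In both groups the values rose from replicate 1 to replicate 3. The log2 difference was −0.10 (SE 0.72), and its 95% interval of −2.0 to 1.80 covers changes of several-fold either way (edgeR adjusted p = 0.995). Leaving out 1 library at a time moved it between −0.48 and 0.80. A fit with replicate number as a block gave a log2 difference of 0.03 with a smaller SE of 0.22. The main fit did not take replicate numbers as pairs. By the root mean square difference of log2 CPM profiles over the 6 libraries, the genes nearest to Tfrc were Nolc1 (0.255), Tcim (0.274), Nol10 (0.281), Cry1 (0.296) and Slc25a51 (0.301), a search added after the values of Tfrc were seen.

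**Figure D2:**
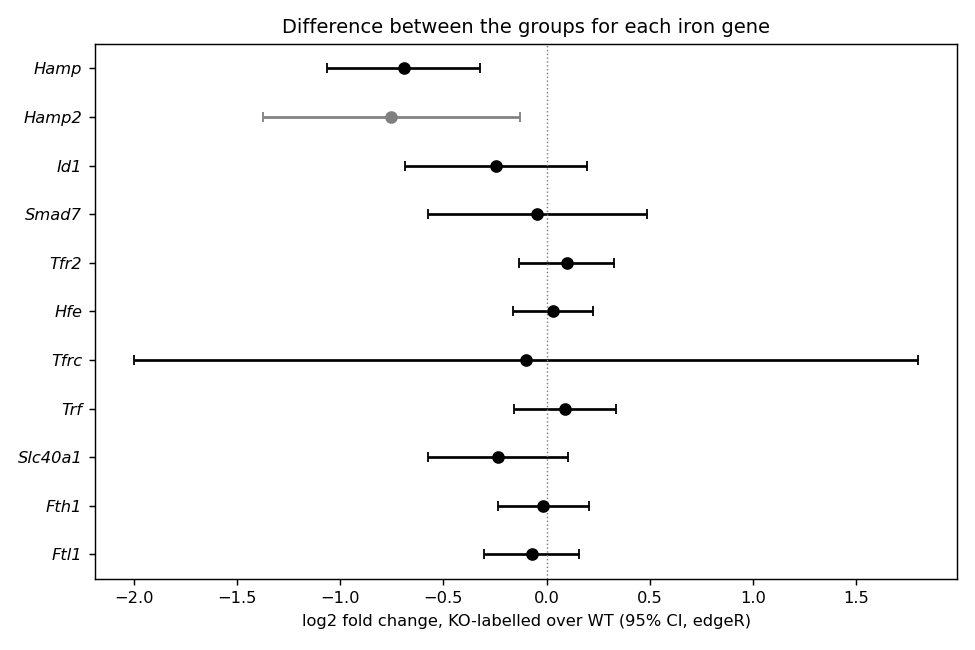
Log2 difference of KO-labelled over WT livers for each iron gene, and Hamp2 in grey, with 95% intervals from edgeR. The intervals of Hamp (−1.06 to −0.32) and Hamp2 (−1.37 to −0.13) lie below 0, the others cross it, and that of Tfrc (−2.0 to 1.80) is the widest.

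Trf (chr9:103199404-103230286) encodes transferrin, the plasma iron carrier made by hepatocytes. It had 10230, 9084 and 9731 CPM in KO-labelled livers, against 8944, 9435 and 8940 CPM in WT livers. The groups overlapped, and the log2 difference was 0.09 (SE 0.11, 95% interval −0.16 to 0.34, edgeR adjusted p = 0.988).

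Slc40a1 (chr1:45908070-45927997), the target of hepcidin, had 112.5, 113.5 and 81.63 CPM in KO-labelled livers, against 125.0, 135.3 and 101.9 CPM in WT livers. The groups overlapped, with replicate 3 lowest in each. The means were 102.5 ± 18.1 CPM in KO-labelled livers and 120.7 ± 17.1 CPM in WT livers (SD, n = 3 each), and the log2 difference was −0.24 (SE 0.15, 95% interval −0.58 to 0.10, edgeR adjusted p = 0.984). It was −0.095 without KO-labelled replicate 3, −0.14 without WT replicate 2 and −0.35 without WT replicate 3, where the unadjusted edgeR p was 0.0415. Kupffer cells, the liver macrophages that recycle iron, also express ferroportin, and all 12 of their markers had a positive difference, with a median of 0.32 on the log2 scale. Of these, 8 passed at an unadjusted p of 0.05, all higher in KO-labelled livers, beside 2.95% of all genes tested, and none passed after adjustment in edgeR, DESeq2 or limma-voom. Set against the Kupffer marker sum, Slc40a1 was 0.283, 0.265 and 0.20 in KO-labelled livers and 0.394, 0.396 and 0.292 in WT livers. The groups did not overlap, with a log2 difference of the ratio of −0.53 and an exact two-sided permutation p of 0.1, the smallest that 3 against 3 allows. The marker sum alone also separated the groups, at 397.4 to 428.2 CPM in KO-labelled livers and 317.1 to 349.3 CPM in WT livers. The separation of the ratio is therefore not a result about Slc40a1 alone. The part that cell makeup plays in these values was not tested.

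**Figure D3:**
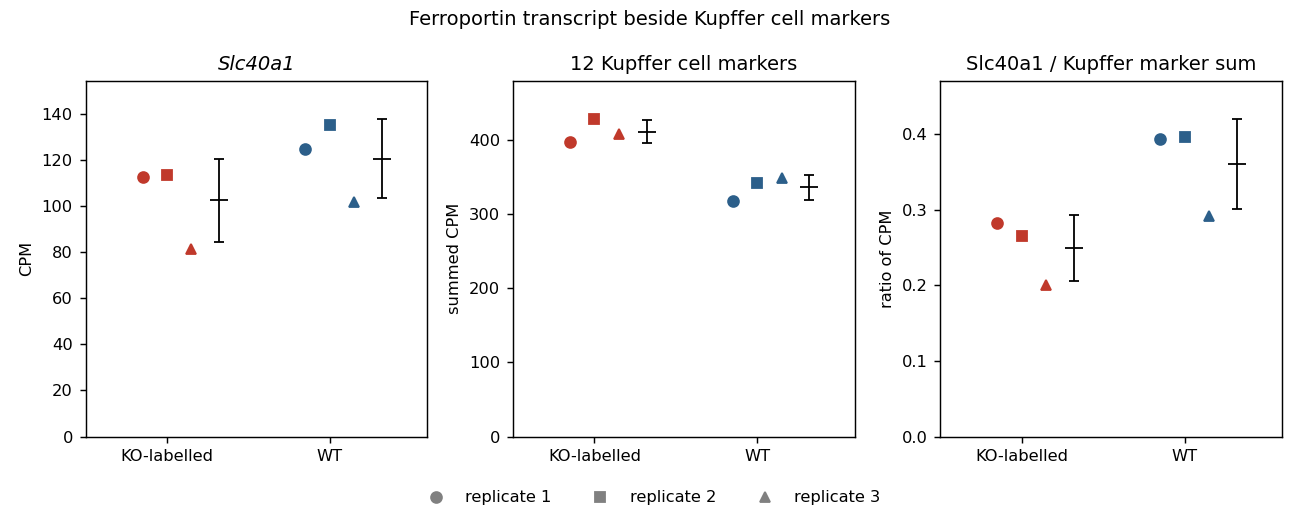
Slc40a1 in CPM, the summed CPM of 12 Kupffer cell markers and the ratio of the first to the second, for the 3 KO-labelled and 3 WT livers with the mean and SD of each group. Slc40a1 overlaps between groups, the marker sum is higher in every KO-labelled liver, and the ratio runs from 0.20 to 0.283 in KO-labelled livers and from 0.292 to 0.396 in WT livers.

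Ferritin, the iron store, is built from heavy chains, encoded by Fth1, and light chains, encoded by Ftl1. Fth1 (chr19:9980600-9985111) had 1491, 1406 and 1375 CPM in KO-labelled livers, against 1495, 1440 and 1389 CPM in WT livers. The groups overlapped throughout, and the log2 difference was −0.02 (SE 0.10, 95% interval −0.24 to 0.20, edgeR adjusted p = 0.994). Ftl1 (chr7:45457944-45459886) had 3844, 3639 and 3657 CPM in KO-labelled livers, against 3916, 4039 and 3763 CPM in WT livers, a log2 difference of −0.07 (SE 0.10, 95% interval −0.30 to 0.16, edgeR adjusted p = 0.988). The CPM ranges overlapped, whereas in FPKM, which has no TMM scaling, Ftl1 ran from 4329 to 4643 in KO-labelled livers and from 4856 to 5243 in WT livers, without overlap. The ratio of Fth1 to Ftl1 in FPKM averaged 0.397 ± 0.0067 in KO-labelled livers and 0.382 ± 0.0133 in WT livers (SD, n = 3 each), with an exact two-sided permutation p of 0.2, where 3 against 3 allows no p below 0.1. Fth1, Ftl1 and Slc40a1, the searched transcripts with a 5′ iron-responsive element, had intervals that include 0.

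Genes around the 10 were taken from 8 lists of 104 genes, of which 98 were tested. None passed an adjusted p of 0.05 in edgeR, DESeq2 or limma-voom. At an unadjusted p of 0.05, 8 were higher and 1 lower, 9.18% of the 98 beside 5.15% of all genes. The groups did not overlap for 12 of them (11 higher, 1 lower), 12.2% beside 10.8% of all genes.

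The acute-phase genes driven by STAT3 held 4 of those 8, all higher, of 13 tested, beside 2.95% of all genes tested. This list had 8 positive and 5 negative differences, with a median log2 difference of 0.09. Serpina3n, a serine protease inhibitor, averaged 368.5 ± 27.5 CPM in KO-labelled livers and 273.7 ± 24.3 CPM in WT livers (SD, n = 3 each), a log2 difference of 0.43 (SE 0.11) with an edgeR adjusted p of 0.739. Orm2, an orosomucoid, averaged 21.15 ± 4.15 CPM in KO-labelled livers and 13.52 ± 3.06 CPM in WT livers, a log2 difference of 0.65 with an edgeR adjusted p of 0.85. The fibrinogen chain Fga averaged 2831 CPM in KO-labelled livers and 2779 CPM in WT livers.

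Other inputs to hepcidin had 7 positive and 6 negative differences of 13 tested. Creb3l3, a liver transcription factor activated by stress of the endoplasmic reticulum, averaged 308.3 ± 5.35 CPM in KO-labelled livers and 247.4 ± 23.7 CPM in WT livers (SD, n = 3 each), without overlap. Its log2 difference was 0.32 (SE 0.10) with an edgeR adjusted p of 0.856. Hnf4a, a master factor of hepatocytes, averaged 525.3 ± 23.8 CPM in KO-labelled livers and 510.8 ± 69.6 CPM in WT livers.

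A list of genes that scavenge haem and haemoglobin, break haem down or carry it across membranes had 10 positive differences of 12 tested. Its median log2 difference was 0.12. Of the 12, 1 passed at an unadjusted edgeR p of 0.05, Hp, higher in KO-labelled livers, beside 2.95% of all genes tested. Hp, haptoglobin, averaged 1665 ± 103 CPM in KO-labelled livers and 1214 ± 231 CPM in WT livers (SD, n = 3 each), a log2 difference of 0.46 (SE 0.15) with an edgeR adjusted p of 0.868. Its receptor Cd163, a marker of macrophages, averaged 8.481 ± 1.08 CPM in KO-labelled livers and 6.226 ± 1.71 CPM in WT livers. Hpx, hemopexin, averaged 3335 ± 84.0 CPM in KO-labelled livers and 2915 ± 84.4 CPM in WT livers, a log2 difference of 0.19.

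Genes of iron uptake and export were split evenly, 5 and 5 of 10 tested, and those of iron sensing and storage 4 and 5 of 9 tested. Lcn2, lipocalin 2, which binds bacterial siderophores, averaged 6.456 ± 1.76 CPM in KO-labelled livers and 2.945 ± 0.944 CPM in WT livers (SD, n = 3 each), a log2 difference of 1.13 (SE 0.28) with an edgeR adjusted p of 0.739. Bdh2, an enzyme linked to siderophore synthesis, averaged 13.87 ± 2.08 CPM in KO-labelled livers and 18.73 ± 2.90 CPM in WT livers, a log2 difference of −0.43 (SE 0.16) with an edgeR adjusted p of 0.918. Aco1, iron regulatory protein 1, averaged 231.9 ± 12.3 CPM in KO-labelled livers and 221.2 ± 1.48 CPM in WT livers. Genes of haem synthesis and mitochondrial iron use had 15 positive of 17 tested with a median of 0.05, and none passed at an unadjusted p of 0.05.

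**Figure D4:**
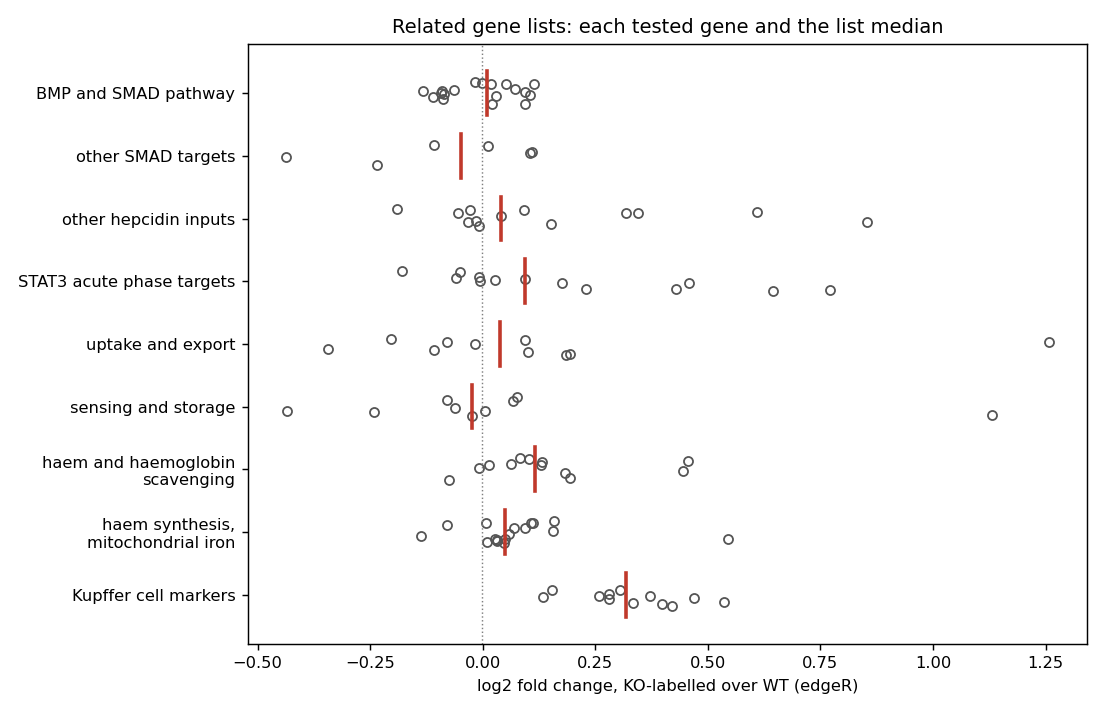
Log2 differences of KO-labelled over WT livers for the tested genes of the 8 related lists and the 12 Kupffer cell markers, 1 open circle per gene, with a red bar at the median of each list. The medians of the related lists run from −0.05 to 0.12 and that of the Kupffer markers is 0.32. No gene shown passed an edgeR adjusted p of 0.05.

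The expression profile of Hamp over the 6 libraries was nearest to those of Gabbr2 (0.171), Erbb4 (0.172), Tm6sf2 (0.178), Gm4724 (0.188) and Dapk2 (0.189), by root mean square difference of centred log2 CPM among 8826 genes with a mean of at least 5 CPM. Of the iron genes, Slc40a1 ranked 298 (0.32) and Ftl1 1114 (0.365), Hamp2 ranked 1500 (0.377), and Tfrc was near the end at 8758 (0.936). Between them lay Fth1 at 2318, Tfr2 at 3356, Hfe at 3790, Trf at 4183 and Smad7 at 4343. Id1 fell below the mean of 5 CPM and was not ranked.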

How the data were processed

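The authors' deposited table gives, per gene and library, expected counts, FPKM and TPM, and log2 fold changes with p-values and q-values of the authors' comparison. Per the submitters' processing notes, HISAT, Bowtie2, RSEM and DESeq2 were used; no genome build is named there, and gene positions matched GRCm38. Expected counts were rounded and tested with edgeR 4.0.16 (TMM scaling, filterByExpr at 10 counts, robust quasi-likelihood, Benjamini-Hochberg adjustment) in R 4.3.3, all 6 libraries in 1 fit. DESeq2 1.42.0 and limma 3.58.1 were alternatives. CPM use TMM-scaled totals. Ratios were compared by exact permutation tests. The edgeR step was tested on simulated data. Another 15 value columns (averages and single-library comparisons) were not used.

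The members and lists were chosen with earlier results of these data known. Named genes are the 10 members, Cgref1, Hamp2, genes of each list past the threshold or else the 3 with the smallest p and the 2 most abundant, and the 5 nearest to Hamp. Bmp6, Reg3b and the genes nearest to Tfrc were added after their values were seen. Replicate numbers were not treated as pairs (correlations 0.283, 0.06 and 0.348). Not analysed here are protein levels, iron content and reads.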

Additional observations from a re-analysis of the deposited data

How the results depend on the processing

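Hamp and Hamp2 kept a negative difference under every alternative run. Hamp lay between −0.90 and −0.58 on the log2 scale over 21 settings, with adjusted p from 0.0199 to 1.0, and passed the threshold with DESeq2 alone (−0.70), which moved the count of iron genes called to 1. Leaving out 1 library at a time gave −0.87 to −0.58 for Hamp. The replicate block gave −0.70 for Hamp (adjusted p 0.266), −0.76 for Hamp2 (adjusted p 0.01) and 1.14 for Lcn2 (adjusted p 0.0492), and called 34 genes in all, against 1 without it. The numbers did not meet the rule for pairs, since 1 of the 3 correlations was 0.06, although each KO-labelled library correlated best with the WT library of its own number, a hint from the data. Slc40a1 joined Hamp in passing an unadjusted threshold of 0.05 with the replicate block, without WT replicate 3 and on TPM. DESeq2 called 28 genes, the fit without KO replicate 1 called 5, and the fits without WT replicates 1 and 3 or with a minimum mean of 5 CPM called 0. Signs near 0 turned. On TPM, whose scaling moved the median of all genes by −0.10, Tfr2 was −0.035, Hfe −0.10, Trf −0.048, Hjv −0.024, Smad6 −0.0198 and Nfs1 −0.019. Hfe was −0.052 with library totals and −0.049 and −0.051 with FPKM pseudocounts of 1 and 0.1. Tfrc was 0.058 with limma-voom and 0.033 with the replicate block, and Smad7 was 0.0042 with limma-voom. Without WT replicates 1 and 3, where the lone WT library is assumed to vary like the KO-labelled ones, Tfr2 was −0.023, Tfrc 0.61 and Hamp2 −0.45. Leaving out 1 library gave −0.48 to 0.80 for Tfrc, −0.35 to −0.095 for Slc40a1, −0.38 to −0.12 for Id1, −0.66 to −0.21 for Id2, 0.67 to 2.05 for Scara5, −0.051 to 0.0078 for Fth1, −0.25 to 0.25 for Smad7, −0.51 to 0.072 for Smad9 and −0.38 to 0.033 for Ireb2. The cause was not tested. The ratio of Slc40a1 to Kupffer markers lay between −0.68 and −0.38 and that of Fth1 to Ftl1 between 0.03 and 0.08. Low counts limit Id1, Smad7 and Cgref1, and related genes such as Epor (15 to 39 counts per library) and Lcn2 (36 to 154 counts per library).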

Other observations

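A few genes of the related lists had large differences or a wide spread between libraries of 1 group. Alas1, the rate-limiting enzyme of haem synthesis, had 913.5, 1228 and 434.5 CPM in KO-labelled livers and 170.2, 903.2 and 693.0 CPM in WT livers. Scara5, a ferritin receptor, averaged 14.23 ± 10.4 CPM in KO-labelled livers and 5.956 ± 4.44 CPM in WT livers (SD, n = 3 each), a log2 difference of 1.26 with an SE of 0.92. Epor, the erythropoietin receptor, averaged 1.706 ± 0.385 CPM in KO-labelled livers and 0.943 ± 0.154 CPM in WT livers, a log2 difference of 0.85 (SE 0.30) with an edgeR adjusted p of 0.903.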
